A study of Mus musculus with 12 samples.

Results

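RNA levels of 10 genes that write, maintain or remove DNA methylation were followed in mouse embryonic stem cells by RNA-seq of 12 libraries. The genes were listed by name for their known function, though with earlier results of these data known: Dnmt1, Uhrf1 and Uhrf2, Dnmt3a, Dnmt3b and Dnmt3l, and Tet1, Tet2, Tet3 and Tdg. Their identifiers were matched to symbols with the GENCODE M21 annotation, and all 10 were found among the 43346 genes of the deposited table. All 10 passed the filter on low counts and were tested together with the other genes that passed, 17148 in all.

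Methylation of cytosine in CpG dinucleotides is copied to the new DNA strand after replication by Dnmt1, which Uhrf1 brings to hemimethylated sites, and is laid down at new sites by Dnmt3a and Dnmt3b, helped by the catalytically inactive cofactor Dnmt3l. The Tet dioxygenases oxidize 5-methylcytosine, and Tdg, a DNA glycosylase, excises the oxidized bases so that repair can restore cytosine. Mouse embryonic stem cells kept with MEK and GSK3 inhibitors are known for low global methylation and for low levels of the de novo methyltransferases.

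The study had 4 groups of 3 libraries, named here B6, D2, B6-13D2 and D2-13B6. B6 cells were C57BL/6J and D2 cells were DBA/2J, a pair of inbred mouse strains. B6-13D2 cells came from the congenic strain B6.D2-(rs30079041-rs51756099)/Bakr, which carries a D2 segment of chromosome 13 on the B6 background, and D2-13B6 cells from D2.B6-(rs29224292-rs13469455)/Bakr, which carries a B6 segment on the D2 background. All cells grew in serum medium with LIF, 1 µM PD0325901 (a MEK inhibitor) and 3 µM CHIR99021 (a GSK3 inhibitor). The comparisons ask how the strains differ and what the segment does on each background. By the protocol the 3 libraries of a group were independent cultures of 1 cell line, so strain and line cannot be told apart. The sample titles, in conflict with this, call them technical replicates, and p-values measure only the spread between these libraries, which may be technical. The labels conflict elsewhere too: B6 replicate 3 carries another line name (B6 4-1) than the other B6 libraries (B6 5-1), the D2 titles name line D2 2-9 where the cell line field gives D2 5-5, and the series design gives another marker (rs51756099) for the end of the D2-13B6 segment. Without B6 replicate 3, 9, 8 and 7 of the 10 genes were called in the 3 main comparisons (10, 8 and 7 with it), Uhrf2 in D2 against B6 being the 1 lost. None of the 10 genes lies on chromosome 13.

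Library totals ranged from 22184196 to 36411799 expected counts, and libraries of the same group correlated more closely (r from 0.9878 to 0.9939 across genes, which are not independent replicates) than libraries of different groups (0.9264 to 0.9751). All 8 stem cell markers, Pou5f1, Nanog and Sox2 among them, had counts in every library. So did all 8 fibroblast markers, collagens of connective tissue among them, although the growth protocol names no feeder cells. The summed fibroblast markers ranged from 9605 to 10426 CPM (counts scaled to a common library total by edgeR's TMM method) in B6 and from 14543 to 17383 in D2, but only from 3167 to 3254 in B6-13D2, with D2-13B6 at 7970.2 to 8323. The summed stem cell markers ranged from 4156 to 4337 CPM in B6 and from 2893 to 2926 in D2, with B6-13D2 at 4732 to 4876 and D2-13B6 at 3444 to 3456. The fibroblast sum was thus highest and the stem cell sum lowest in D2, with the reverse in B6-13D2, while B6 was above D2-13B6 in both. In bulk RNA, fewer cells of a type and less RNA per cell cannot be told apart, and the part of the fibroblast markers in the differences below was not tested. An added scaling, the stem cell marker scaling, holds the geometric mean of the counts of the 8 stem cell markers level. Single markers still differed under it, with 5 called higher and 3 lower in D2 against B6. It moved the all-gene median, on the log2 scale, to 0.50 for D2 over B6, -0.20 for B6-13D2 over B6 and -0.24 for D2-13B6 over D2. Orders and overlaps of groups given below are those of TMM-scaled CPM, and directions that the added scaling turned in these 3 comparisons are given beside the result.

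**Figure D1:**
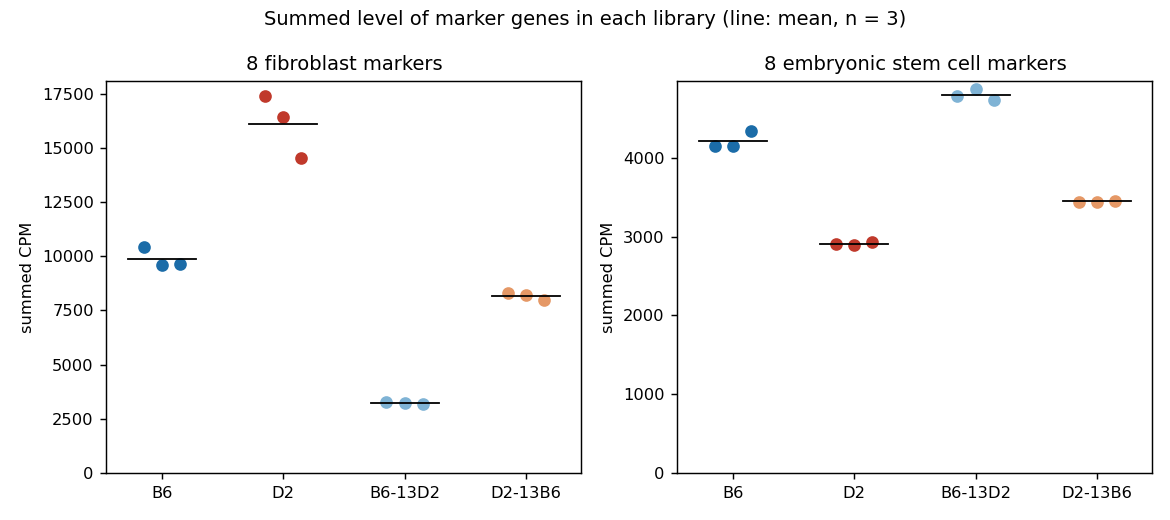
Summed CPM of 8 fibroblast markers (left) and 8 embryonic stem cell markers (right) in each library (points) with the group mean (line, n = 3). D2 libraries are the highest for fibroblast markers (14543 to 17383 CPM) and the lowest for stem cell markers (2893 to 2926 CPM), and B6-13D2 libraries are the reverse.

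Per length of annotated exon, Uhrf1 was the most abundant of the 10 genes in every group, at 98 to 208 CPM per kilobase (group means), and Tet3 the least, at 0.82 to 1.90. Among the methyltransferase genes, Dnmt1 held 46.7% of the summed level per kilobase in B6 and 40.7% in B6-13D2. In D2 it held 27.0%, and in D2-13B6 24.4%. Dnmt3l held the largest share in the latter pair, 44.7% in D2 and 49.7% in D2-13B6. These shares are ratios within a library, so they do not depend on the scaling between libraries. The spread of a gene over the groups does depend on the scaling: with TMM scaling, Dnmt3l had the widest distance between group means, 2.94-fold, and Tet1 the narrowest, 1.10-fold. Under the stem cell marker scaling the widest fitted distance was again that of Dnmt3l, 3.49-fold, but Dnmt1 had the narrowest, 1.11-fold, and Tet1 reached 1.47-fold.

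**Figure D2:**
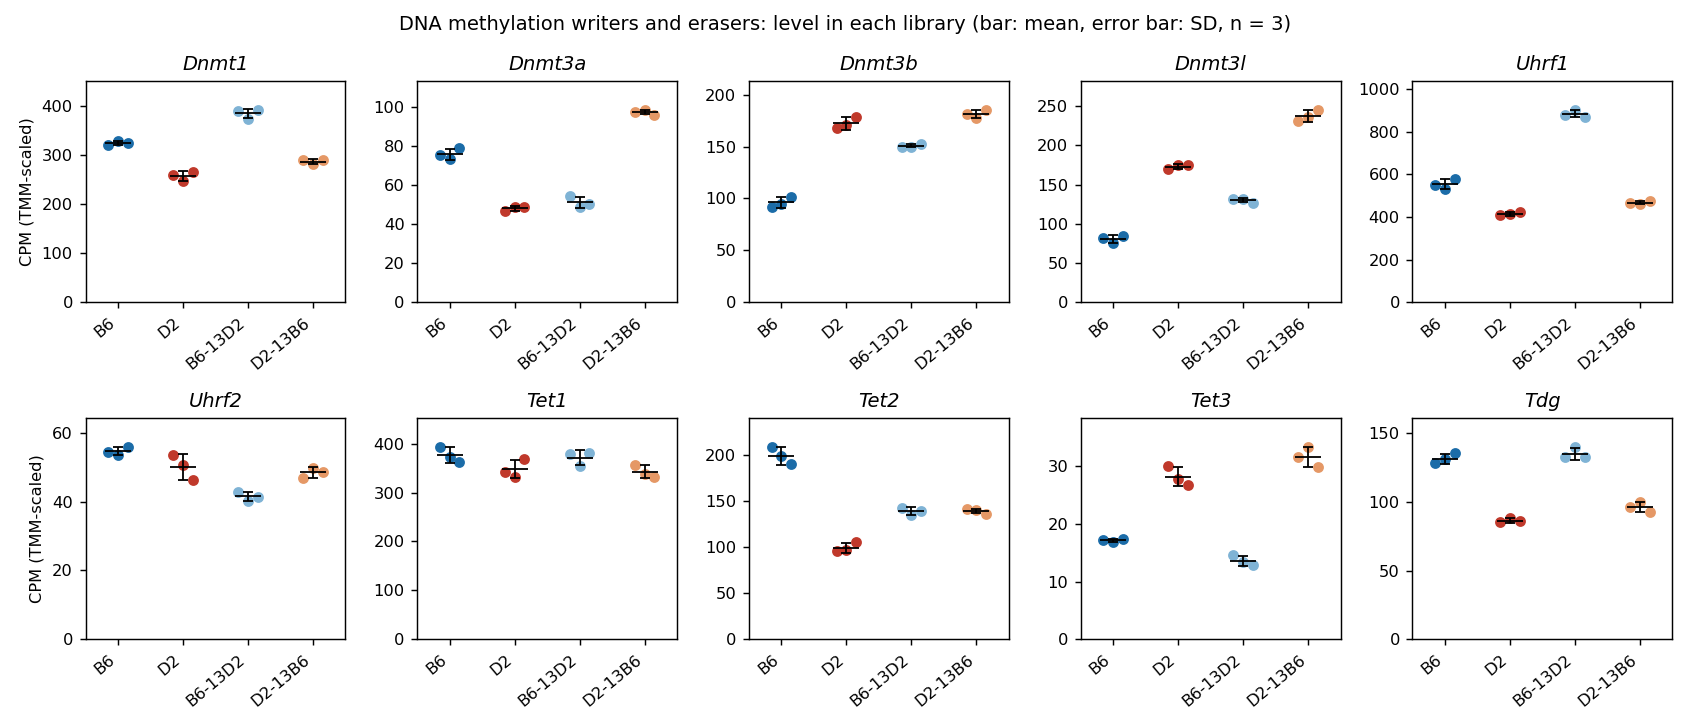
Level of each of the 10 genes in CPM (TMM-scaled, linear axes from 0) in each library (points), with the mean (bar) and SD (error bar, n = 3). Dnmt3l spans 75.1 to 245 CPM, whereas Tet1 stays between 332 and 394 CPM in all libraries.

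With TMM scaling, the maintenance genes Dnmt1 and Uhrf1 were highest in B6-13D2 and lowest in D2; with the stem cell marker scaling Uhrf1 was still higher in B6-13D2 than in B6 (log2 0.51), but D2 was lowest for neither gene. Dnmt1, the maintenance methyltransferase, had 321, 328 and 326 CPM in the B6 libraries, 259, 248 and 267 in D2, 389.6, 375 and 393 in B6-13D2 and 290.1, 282 and 290.3 in D2-13B6. No pair of groups overlapped. Uhrf1 had 551, 531 and 579 CPM in B6, 408, 415 and 426 in D2, 879, 902 and 871 in B6-13D2, and 465, 462 and 477 in D2-13B6. The groups again did not overlap, and B6-13D2 stood farthest from the others. The Uhrf1 fold of B6-13D2 over B6 was 1.60 (log2 0.68, SE 0.0351, edgeR adjusted p 1.55e-11), and that of Dnmt1 was 1.19 (log2 0.25, SE 0.0342, edgeR adjusted p 6.49e-06). Under the stem cell marker scaling the Dnmt1 difference was 0.08 and no longer called (edgeR adjusted p 0.0828). In each library, the ratio of Uhrf1 to Dnmt1 counts was 1.62 to 1.78 in B6, 1.57 to 1.68 in D2 and 1.60 to 1.64 in D2-13B6, but 2.22 to 2.41 in B6-13D2. This ratio needs no scaling, and it puts the B6-13D2 libraries apart from the other 9.

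D2 had less of both than B6, by 1.26-fold for Dnmt1 (log2 -0.34, SE 0.0345, edgeR adjusted p 1.92e-07) and 1.33-fold for Uhrf1 (log2 -0.41, SE 0.0353, edgeR adjusted p 2.02e-08). Under the stem cell marker scaling both changed sign, to 0.15 and 0.08. D2-13B6 had slightly more than D2, by 0.16 for Dnmt1 and 0.17 for Uhrf1 (edgeR adjusted p 7.52e-04 and 5.47e-04), and these too changed sign under that scaling, to -0.08 and -0.07. Uhrf2, a paralogue of Uhrf1 that also binds methylated DNA, had 54.4, 53.6 and 56.0 CPM in B6, 53.6, 50.6 and 46.3 in D2, 42.9, 40.2 and 41.5 in B6-13D2, and 46.9, 49.9 and 48.8 in D2-13B6. The B6-13D2 libraries were the lowest and overlapped none of the others, whereas D2 and D2-13B6 overlapped. D2-13B6 against D2 gave -0.05 (edgeR adjusted p 0.416) with TMM, but was called at -0.29 (edgeR adjusted p 9.5e-05) under the stem cell marker scaling. Uhrf2 was 1.32-fold lower in B6-13D2 than in B6 (log2 -0.40, SE 0.0509, edgeR adjusted p 2.55e-06), opposite in sign to Uhrf1, and the stem cell marker scaling gave -0.56. Its difference between D2 and B6 (-0.12, edgeR adjusted p 0.042) passed the threshold in only 5 of 19 alternative settings (other tools, filters, scalings and fits, and each library left out) and was 0.36 under the stem cell marker scaling. It was lost without any one of the B6 replicates, D2 replicates 2 or 3, B6-13D2 replicate 3 or D2-13B6 replicates 2 or 3, at values from -0.14 to -0.07.

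The promoters of Dnmt1 and Uhrf1 are shown because these genes, like Tdg, were highest in B6-13D2 and lowest in D2 with TMM scaling, and because they alone of the 10 held an E2F octamer. RefSeq promoters of the GRCm38.p6 build, 250 bases before to 50 bases after a transcription start, were searched on both strands for TTTCCCGC, TTTCGCGC, TTTGCCGC and TTTGGCGC, the octamers of the cell cycle factors of the E2F family, overlapping matches included. All 10 genes matched, with 17 promoters, and 2.26% of all 32851 promoters held such an octamer. The starts shown lie at chr9:20952574-20952873 on the minus strand for Dnmt1 and chr17:56304063-56304362 on the plus strand for Uhrf1, 5′ to 3′ with the octamers in capitals. A match of letters is a description only.
Dnmt1: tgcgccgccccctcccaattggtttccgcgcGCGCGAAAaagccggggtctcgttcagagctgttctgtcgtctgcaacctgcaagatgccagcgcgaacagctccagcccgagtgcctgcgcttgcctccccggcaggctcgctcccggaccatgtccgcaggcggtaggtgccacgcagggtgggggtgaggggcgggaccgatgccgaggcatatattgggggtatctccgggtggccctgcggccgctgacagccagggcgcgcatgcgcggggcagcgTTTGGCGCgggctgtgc
Uhrf1: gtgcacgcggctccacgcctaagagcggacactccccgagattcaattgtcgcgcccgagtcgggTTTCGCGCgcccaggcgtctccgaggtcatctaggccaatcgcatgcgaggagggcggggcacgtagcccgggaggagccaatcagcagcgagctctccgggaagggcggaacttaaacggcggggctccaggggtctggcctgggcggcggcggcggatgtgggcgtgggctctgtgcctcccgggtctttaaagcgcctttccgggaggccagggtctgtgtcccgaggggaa

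The de novo genes differed in opposite directions between the strains: D2 had less Dnmt3a and more Dnmt3b and Dnmt3l than B6. Dnmt3a, a de novo methyltransferase, had 75.5, 73.4 and 78.9 CPM in B6, 46.9, 48.9 and 48.9 in D2, 54.3, 48.8 and 50.5 in B6-13D2, and 97.7, 98.5 and 96.2 in D2-13B6. The groups with a D2 segment, D2 and B6-13D2, overlapped at the low end with TMM scaling, and both groups with a B6 segment lay above them. B6-13D2 against D2 gave 0.09 (edgeR adjusted p 0.0945), which the stem cell marker scaling turned to -0.56 (edgeR adjusted p 4.23e-09). Dnmt3a was lower in D2 than in B6 by 1.57-fold (log2 -0.65, SE 0.0445, edgeR adjusted p 1.01e-09). B6-13D2 was lower than B6 by 1.48-fold (log2 -0.57, SE 0.0440, edgeR adjusted p 3.86e-09), and D2-13B6 was higher than D2 by 2.02-fold (log2 1.01, SE 0.0431, edgeR adjusted p 1.97e-12). All 3 were called in the same direction in each of 19 settings, but the stem cell marker scaling reduced the first to -0.17 (edgeR adjusted p 0.00443). D2-13B6 also exceeded B6, by 1.28-fold (log2 0.36, edgeR adjusted p 8.43e-07).

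Dnmt3b, the other de novo enzyme, had 92.2, 94.7 and 102 CPM in B6, 167, 170.5 and 179 in D2, 150.0, 149.7 and 152 in B6-13D2, and 181, 178 and 185 in D2-13B6. B6 stood well below the other groups, and D2 and D2-13B6 overlapped. Dnmt3b was higher than in B6 by 1.79-fold in D2 (log2 0.84, SE 0.0400, edgeR adjusted p 9.31e-12) and by 1.56-fold in B6-13D2 (log2 0.65, SE 0.0401, edgeR adjusted p 1.82e-10). The stem cell marker scaling gave 1.33 and 0.48. D2-13B6 against D2 gave 0.07 (edgeR adjusted p 0.109), and -0.17 under the stem cell marker scaling; without D2 replicate 3 it was 0.10 and passed the threshold (edgeR adjusted p 0.0430). Part of the Dnmt3b reads was divided with other genes in 11 of 12 libraries, so its level is less certain than those of the genes with whole counts.

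Dnmt3l, the cofactor that stimulates Dnmt3a and Dnmt3b, had 82.2, 75.1 and 84.5 CPM in B6, 169, 174 and 176 in D2, 131, 132 and 127 in B6-13D2, and 231, 236 and 245 in D2-13B6. The 4 groups did not overlap, and B6 was the lowest. D2 had 2.15-fold more than B6 (log2 1.10, SE 0.0424, edgeR adjusted p 4.48e-13). B6-13D2 had 1.61-fold more than B6 (log2 0.69, SE 0.0426, edgeR adjusted p 1.73e-10), and D2-13B6 had 1.37-fold more than D2 (log2 0.45, SE 0.0397, edgeR adjusted p 2.26e-08). The widest distance was 2.94-fold, from B6 to D2-13B6. The 3 comparisons gave 1.59, 0.53 and 0.21 with the stem cell marker scaling, all called in the same direction (edgeR adjusted p 8.09e-05 for the last). An exon of Dnmt3l overlaps one of Aire on the opposite strand by 67 bases, and Aire had 10781 counts over all libraries; whether counting used the strand is not given in the sources used here.

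Ratios of counts within a library show the shift among the de novo genes without any scaling. The ratio of Dnmt3b to Dnmt3a was 1.22 to 1.29 in B6 and 3.49 to 3.66 in D2, with 2.76 to 3.07 in B6-13D2 and 1.80 to 1.93 in D2-13B6. The ratio of Dnmt3l to Dnmt3a was 1.02 to 1.09 in B6 and 3.57 to 3.61 in D2, with 2.42 to 2.70 in B6-13D2 and 2.37 to 2.55 in D2-13B6. B6 was lowest and D2 highest for both ratios, with the congenic lines between them. For Dnmt3b over Dnmt3a, the groups with the D2 segment had the higher ratio on each background. For Dnmt3l over Dnmt3a, the congenic lines overlapped.

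The promoters of the de novo genes are shown with every CpG, the dinucleotide that these enzymes methylate, in capitals, since they differ widely in CpG content. Over all promoters the median was 7 CpG. Dnmt3l held 6 at its most CpG-rich start (chr10:78042037-78042336, plus strand), a number reached by 56.4% of promoters. Dnmt3b held 30 (chr2:153649199-153649498, plus strand; reached by 11.7%). Dnmt3a has upstream starts with 46 and 47 CpG and an internal start with 18 (chr12:3891494-3891793, plus strand; reached by 29.7%), of which the internal one is shown. Methylation itself was not measured in these libraries.
Dnmt3l: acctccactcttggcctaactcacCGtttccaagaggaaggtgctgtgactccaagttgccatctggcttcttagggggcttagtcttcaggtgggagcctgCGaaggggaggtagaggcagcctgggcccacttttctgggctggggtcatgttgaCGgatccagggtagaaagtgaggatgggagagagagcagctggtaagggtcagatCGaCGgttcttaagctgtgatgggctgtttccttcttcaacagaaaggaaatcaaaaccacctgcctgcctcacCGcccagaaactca
Dnmt3b: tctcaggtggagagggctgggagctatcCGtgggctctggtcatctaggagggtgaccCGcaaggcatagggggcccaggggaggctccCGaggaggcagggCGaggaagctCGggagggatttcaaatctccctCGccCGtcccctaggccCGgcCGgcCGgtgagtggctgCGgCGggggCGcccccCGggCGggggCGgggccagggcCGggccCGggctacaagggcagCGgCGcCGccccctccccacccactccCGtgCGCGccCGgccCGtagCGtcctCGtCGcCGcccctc
Dnmt3a, internal start: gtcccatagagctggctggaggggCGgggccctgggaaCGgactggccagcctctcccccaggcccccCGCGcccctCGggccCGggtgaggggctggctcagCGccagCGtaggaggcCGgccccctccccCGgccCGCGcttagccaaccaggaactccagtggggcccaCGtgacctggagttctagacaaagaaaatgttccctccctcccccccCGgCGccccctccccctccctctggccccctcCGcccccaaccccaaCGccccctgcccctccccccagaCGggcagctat

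Of the erasers, Tet2 and Tet3 differed between groups while Tet1 was nearly level with TMM scaling. Tet1, the main TET gene of embryonic stem cells, had 394, 372 and 363 CPM in B6, 342, 333 and 369 in D2, 379, 354 and 382 in B6-13D2, and 357, 337 and 332 in D2-13B6. B6 overlapped D2 and B6-13D2, and no neighbours in the order of the group means differed by the test. D2 against B6 gave -0.11 (SE 0.0455, edgeR adjusted p 0.0402), a call made in 10 of 19 settings and turned to 0.37 by the stem cell marker scaling. That scaling also made calls of Tet1 in B6-13D2 against B6 (-0.18, edgeR adjusted p 0.00812) and D2-13B6 against D2 (-0.26, edgeR adjusted p 3.65e-04), which TMM did not (-0.02 in both). The D2 against B6 call was lost without B6 replicate 1 or 2 (-0.08 and -0.12) or D2 replicate 1 or 2 (-0.10 and -0.08).

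Tet2, an oxidase that unlike Tet1 and Tet3 lacks a CXXC domain of its own, had 209, 199 and 190.1 CPM in B6, 95.4, 97.0 and 105 in D2, 143, 135 and 139.6 in B6-13D2, and 141, 141 and 136 in D2-13B6. With TMM scaling B6 was highest, D2 lowest, and the congenic lines overlapped between them. Tet2 was lower in D2 than in B6 by 2.01-fold (log2 -1.01, SE 0.0435, edgeR adjusted p 2.21e-12). The D2 segment went with 1.43-fold less on the B6 background (log2 -0.52, SE 0.0425, edgeR adjusted p 8.21e-09), and the B6 segment with 1.41-fold more on the D2 background (log2 0.49, SE 0.0433, edgeR adjusted p 2.37e-08). All 3 were called in the same direction in each of 19 settings, but with the stem cell marker scaling the first was -0.52 and the last 0.25. TMM did not distinguish B6-13D2 and D2-13B6 (log2 0.002, SE 0.0424, edgeR adjusted p 0.964), whereas the other scaling put D2-13B6 higher by 0.41 (edgeR adjusted p 1.22e-06). B6-13D2 exceeded D2 by 0.49 with TMM but was lower by -0.16 (edgeR adjusted p 0.0119) with the other scaling, under which B6-13D2 was the lowest group.

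Tet3, which was low in all groups, had 17.2, 16.9 and 17.4 CPM in B6, 30.1, 27.8 and 26.9 in D2, 14.6, 13.5 and 12.9 in B6-13D2, and 31.6, 33.5 and 29.9 in D2-13B6. The groups on the D2 background overlapped each other and lay above those on the B6 background. Tet3 was higher in D2 than in B6 by 1.65-fold (log2 0.72, SE 0.0642, edgeR adjusted p 3.33e-08) and lower in B6-13D2 than in B6 by 1.26-fold (log2 -0.33, SE 0.0694, edgeR adjusted p 5.14e-04). The stem cell marker scaling gave 1.21 and -0.49. D2-13B6 against D2 gave 0.17 (SE 0.0577, edgeR adjusted p 0.0206), and -0.07 under the stem cell marker scaling. That call was lost without D2 replicate 2 (0.15), D2 replicate 3 (0.13) or D2-13B6 replicate 2 (0.12), and with a minimum mean CPM of 1 (0.13, edgeR adjusted p 0.063). As shares of the summed level of the TET genes per kilobase, Tet2 held 31.8% ± 0.248 (SD, n = 3) in B6 and 19.5% ± 0.386 in D2, with 24.9% ± 0.370 in B6-13D2 and 25.6% ± 0.490 in D2-13B6. Tet1 held 65.5% in B6 and 74.8% in D2, and Tet3 2.77% and 5.64%. Within a library, Tet1 counts exceeded Tet2 counts 1.87 to 1.91 times in B6 and 3.43 to 3.59 times in D2, with ranges of 2.62 to 2.74 in B6-13D2 and 2.39 to 2.54 in D2-13B6.

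Tdg, the glycosylase that removes oxidized methylcytosine, had 128, 131 and 135 CPM in B6, 85.1, 88.1 and 85.9 in D2, 133, 140.3 and 132 in B6-13D2, and 96.2, 99.8 and 92.6 in D2-13B6. The groups on the B6 background overlapped each other and lay above both groups on the D2 background with TMM scaling. The stem cell marker scaling brought B6-13D2 against D2 from 0.65 to -0.005 (edgeR adjusted p 0.912). Tdg was lower in D2 than in B6 by 1.52-fold (log2 -0.61, SE 0.0390, edgeR adjusted p 4.89e-10), a call made in all 19 settings, though at -0.12 (edgeR adjusted p 0.0102) with the stem cell marker scaling. B6-13D2 against B6 gave 0.04 (SE 0.0379, edgeR adjusted p 0.37). It was called higher with RLE size factors (0.10, edgeR adjusted p 0.0226) and with DESeq2 (0.10, DESeq2 adjusted p 0.0259), and lower under the stem cell marker scaling (-0.12, edgeR adjusted p 0.00923). D2-13B6 against D2 gave 0.15 (SE 0.0388, edgeR adjusted p 0.00242), which that scaling turned to -0.09. Part of the Tdg reads was divided with other genes in all 12 libraries, and a Tdg exon overlaps Glt8d2 on the opposite strand by 367 bases (218.5 counts of Glt8d2 over all libraries).

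The Tet2 promoter (chr3:133544341-133544640, minus strand) is shown for its CpG density, again with each CpG in capitals. It held 57 CpG in 300 bases, a number reached by 0.152% of all promoters and by none of the other 16 promoters of the 10 genes. The hexamer GGGCGG, searched on both strands and known as the GC box, was in 13 of the 17 promoters and in 35.7% of all promoters. The hexamer TATAAA, also searched on both strands, was in none of the 17 and in 13.6% of all.
Tet2: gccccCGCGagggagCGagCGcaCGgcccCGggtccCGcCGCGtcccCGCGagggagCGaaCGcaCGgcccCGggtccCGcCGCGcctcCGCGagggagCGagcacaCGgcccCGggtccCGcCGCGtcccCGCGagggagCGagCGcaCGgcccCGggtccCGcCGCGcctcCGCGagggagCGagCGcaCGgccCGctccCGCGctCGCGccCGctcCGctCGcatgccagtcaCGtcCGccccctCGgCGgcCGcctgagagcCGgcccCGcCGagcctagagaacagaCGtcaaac

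In D2 against B6, all 10 genes were called at an adjusted p under 0.05, 3 higher and 7 lower, where 60.0% of all tested genes were called, 29.8% higher and 30.3% lower. DESeq2 and RLE size factors each called 8 of the 10, 3 higher and 5 lower, without Uhrf2 and Tet1. In 9 of the 10 the libraries of the groups did not overlap, against 62.0% of all genes. The log2 fold changes had a median size of 0.63 over the 10 and of 0.33 over all genes. Of all called genes, 49.6% were higher in D2. With the stem cell marker scaling 77.3% of all genes were called, 90.6% of them higher, and 7 of the 10 genes were higher and 3 lower.

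In B6-13D2 against B6, which shares the B6 libraries with the comparison before, 8 of the 10 were called, 4 higher and 4 lower, with 58.3% of all genes called, 25.4% higher and 32.9% lower. The libraries did not overlap for 8, against 63.2% of all genes. Dnmt1, Dnmt3b, Dnmt3l and Uhrf1 were higher, and Dnmt3a, Uhrf2, Tet2 and Tet3 lower. Of all called genes 43.5% were higher, and 23.7% with the stem cell marker scaling. Under that scaling 60.2% of all genes were called, and 3 of the 10 were higher and 6 lower. In D2-13B6 against D2, 7 of the 10 were called, 7 higher and 0 lower, with 57.3% of all genes called, 27.6% higher and 29.7% lower. The libraries did not overlap for 6, against 62.9% of all genes. The 7 were Dnmt1, Dnmt3a, Dnmt3l, Uhrf1, Tet2, Tet3 and Tdg, with a median log2 fold change over all 10 of 0.16 and of all genes of 0. With the stem cell marker scaling, 3 of the 10 were called higher and 4 lower. That scaling called 63.7% of all genes, and of all called genes 20.2% were higher in place of 48.2%.

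**Figure D3:**
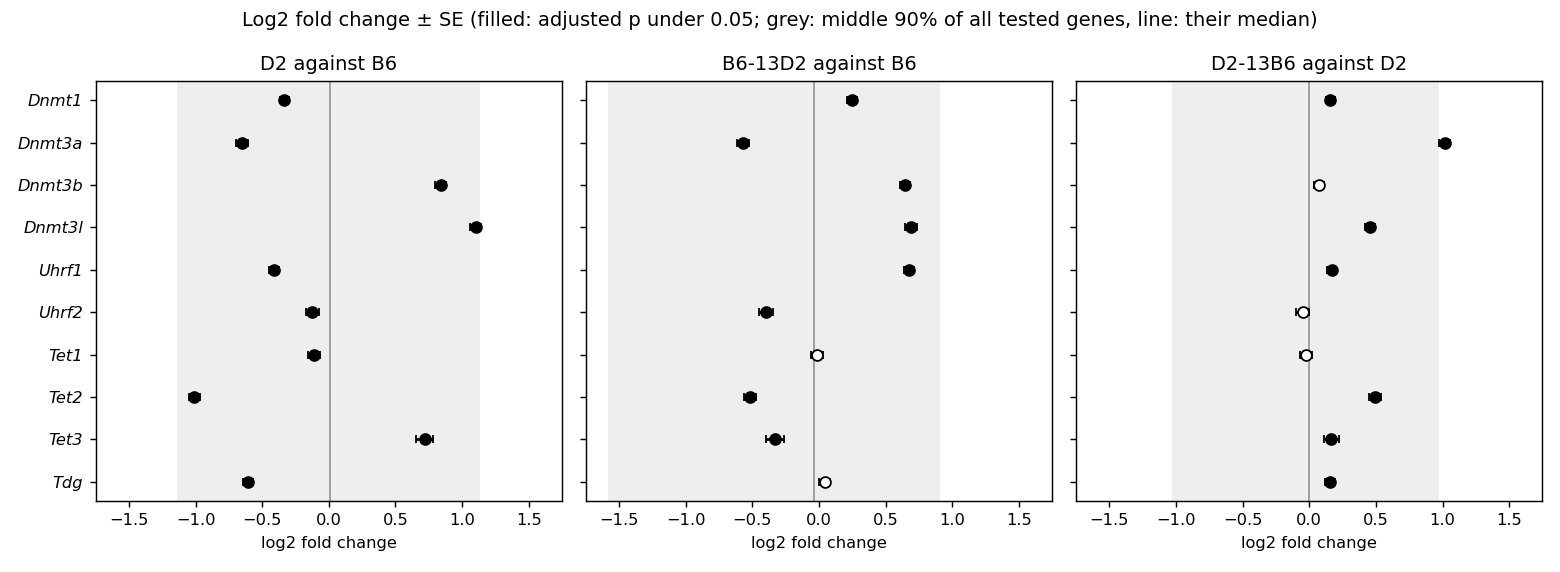
Log2 fold change ± SE of the 10 genes in 3 comparisons (TMM scaling; filled points passed the adjusted p of 0.05, open points did not), with the middle 90% of all tested genes in grey and their median as a line. All 10 points are filled for D2 against B6, 8 for B6-13D2 against B6 and 7 for D2-13B6 against D2; the stem cell marker scaling turned the direction of 4, 1 and 5 of the 10 genes, called or not, respectively.

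**Figure D4:**
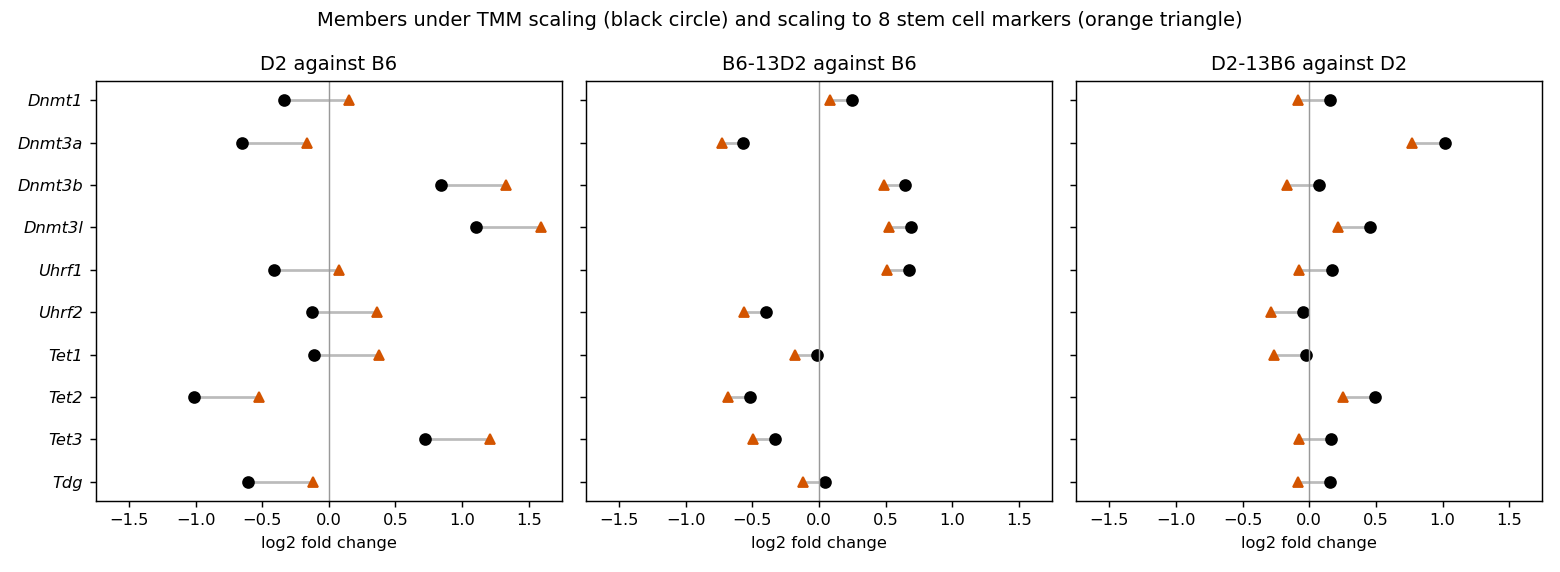
The same log2 fold changes under TMM scaling (circles) and under scaling to 8 stem cell markers (triangles). Dnmt3a, Dnmt3l and Tet2 keep their sign in all 3 comparisons, whereas Dnmt1 and Uhrf1 change sign in D2 against B6 (to 0.15 and 0.08) and in D2-13B6 against D2 (to -0.08 and -0.07).

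Among the remaining pairs of groups, 10 of the 10 genes were called in D2-13B6 against B6 (59.0% of all genes), 8 in B6-13D2 against D2 (74.6%) and 9 in D2-13B6 against B6-13D2 (70.2%). DESeq2 and RLE size factors each gave 8, 9 and 9. In the first pair the stem cell marker scaling called 4 higher and 2 lower, with 59% of all genes called. With TMM scaling, Tet3 was 2.32-fold higher in D2-13B6 than in B6-13D2 (log2 1.21, SE 0.0626, edgeR adjusted p 8.40e-12). The stem cell marker scaling gave 3.09-fold for the same difference. Uhrf1 was 2.12-fold higher in B6-13D2 than in D2 (log2 1.09, SE 0.0354, edgeR adjusted p 6.78e-15), but 1.35-fold with that scaling. In B6-13D2 against D2, TMM called 4 of the 10 higher and 4 lower, where 49.1% of all called genes were higher. The stem cell marker scaling called 1 higher (Uhrf1) and 7 lower, where 82.2% of all genes were called, 12.4% of them higher.

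A gene was said to follow the interval allele if the libraries with the D2 segment differed from those with the B6 segment with the same sign on both backgrounds, both differences called. This held for Dnmt3a, Tet2 and Tet3, 3 of the 10, where it held for 7.33% of all tested genes. All 3 were lower with the D2 segment. For Dnmt3a the effect of the D2 segment was -0.57 on the B6 background and -1.01 on the D2 background, for Tet2 -0.52 and -0.49, and for Tet3 -0.33 and -0.17. With the stem cell marker scaling, Dnmt3a and Tet2 still followed the allele and Tet3 did not, while Dnmt3b and Uhrf1 then did, both higher with the D2 segment. Tet3 also ceased to follow it without D2 replicate 2, D2 replicate 3 or D2-13B6 replicate 2 and with a minimum mean CPM of 1, as given above. Each side of the comparison uses its own libraries, but the parental and congenic cells differ by line as well as by segment, so these effects cannot be told apart from line differences.

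**Figure D5:**
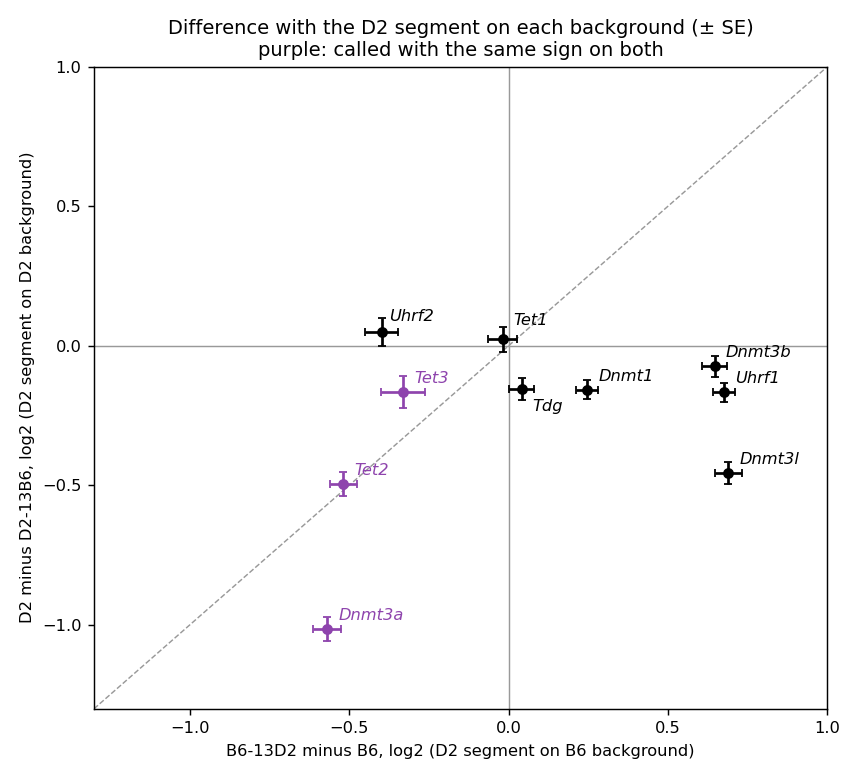
Log2 difference between libraries with the D2 and the B6 segment on the B6 background (x axis) and on the D2 background (y axis), ± SE, TMM scaling; the dashed line marks equal effects. Dnmt3a, Tet2 and Tet3 (purple) lie below 0 on both axes, while Dnmt3l lies at 0.69 and -0.45; under the stem cell marker scaling Dnmt1, Dnmt3b, Uhrf1, Tet3 and Tdg turned positive on the D2 background and Tdg negative on the B6 background.

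The effect of the D2 segment differed between the backgrounds for 7 of the 10 genes, 6 with a higher and 1 with a lower value on the B6 background, where 64.5% of all genes were called, 31.1% higher and 33.4% lower. With the stem cell marker scaling, 3 of the 10 were higher and 5 lower. That scaling called 66.7% of all genes, and 19.9% of all called genes were higher in place of 48.2%. Dnmt3l had the widest difference: the D2 segment went with 0.69 more on the B6 background and with 0.45 less on the D2 background (difference 1.14, SE 0.0583, edgeR adjusted p 7.69e-12). For Tet2 the effects differed by -0.02 (SE 0.0606, edgeR adjusted p 0.741), but by -0.43 (edgeR adjusted p 6.36e-05) under the stem cell marker scaling. By its algebra this contrast equals both congenic lines minus both parental lines, and the columns of all congenic libraries carry a prefix that the parental columns lack, so an interaction cannot be told apart from anything the congenic libraries share.

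Other genes of the pathway were taken from lists of known function, chosen with earlier results of these data known. Among 8 readers of methylated CpG, 6 were called in D2 against B6 (5 higher, 1 lower), 6 in B6-13D2 against B6 (1 and 5) and 8 in D2-13B6 against D2 (1 and 7). These and the counts of the lists that follow stand beside 60.0%, 58.3% and 57.3% of all genes called in the same comparisons. With the stem cell marker scaling those shares were 77.3%, 60.2% and 63.7%. The stem cell marker scaling gave 7 and 0, 1 and 7, and 1 and 7, so Mbd4, the 1 reader that was lower in D2, was no longer called there. The repressor Zbtb4 was higher in D2 than in B6 by 0.57 (log2, SE 0.0614, edgeR adjusted p 3.73e-07), lower in B6-13D2 than in B6 (-0.96) and lower in D2-13B6 than in D2 (-0.64). Those values became 1.05, -1.12 and -0.88 with that scaling. The median log2 fold changes of the readers were 0.21, -0.44 and -0.35 in these comparisons, and those of all genes 0.01, -0.04 and 0. The readers summed to 303 to 311 CPM in B6, 348 to 355 in D2, 266 to 279.5 in B6-13D2 and 281 to 285 in D2-13B6, the same order of groups as for the fibroblast markers, whose part was not tested.

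Among 12 partners and regulators of the methyltransferases and TET proteins, 11 were called in D2 against B6, 0 higher and 11 lower, which the stem cell marker scaling turned to 6 higher and 4 lower. In B6-13D2 against B6, 4 were higher and 3 lower (2 and 8 with that scaling), and in D2-13B6 against D2, 8 and 1 (4 and 4 with that scaling). Dppa3, known to keep Uhrf1 off chromatin, was lower in D2 than in B6 (log2 -1.94, SE 0.117, edgeR adjusted p 2.16e-10) and lower in B6-13D2 than in B6 (log2 -0.99, SE 0.107). It was lower in D2-13B6 than in D2 as well (log2 -0.78, SE 0.144, edgeR adjusted p 1.48e-04). All 3 kept their sign with that scaling, at -1.46, -1.15 and -1.02. Zfp57, which protects imprinted methylation, was lower in D2 and in B6-13D2 than in B6, by -0.90 and -0.55, and higher in D2-13B6 than in D2 by 0.67. That scaling gave -0.41, -0.71 and 0.42.

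Of 12 genes listed for base excision repair, 8 were called in D2 against B6 (3 higher, 5 lower). In B6-13D2 against B6 there were 7 (6 and 1), and in D2-13B6 against D2 9 (7 and 2). The list held Gadd45a and Gadd45b, which are not repair enzymes. They were among the genes higher in D2 than in B6 (0.57 and 0.31). They were also the 2 that were lower in D2-13B6 than in D2 (-0.15 and -0.43). The stem cell marker scaling gave 8 higher and 2 lower, 5 and 5, and 4 and 4 in the 3 comparisons. Lig3, which seals the repaired strand, was higher in D2-13B6 than in D2 by 0.81 (log2, SE 0.0346, edgeR adjusted p 2.12e-12). Of 12 genes of the methyl donor cycle, 9 were called in D2 against B6 (1 higher, 8 lower; 7 and 3 with that scaling), 10 in B6-13D2 against B6 (8 and 2; 4 and 4) and 9 in D2-13B6 against D2 (8 and 1; 2 and 8). With 1 library left out, 6 to 9 of these genes were called in D2-13B6 against D2, and fewer still with a minimum mean CPM of 1, as given below. Mthfd1, a folate enzyme that supplies one-carbon units, was lower in D2 than in B6 by -1.11 (SE 0.0315, edgeR adjusted p 8.06e-15), and by -0.62 with the stem cell marker scaling. Of 6 tested genes with a CXXC domain that binds unmethylated CpG, 4 were called lower in D2 than in B6 and 3 in B6-13D2 than in B6, and 4 higher in D2-13B6 than in D2. That scaling turned the first to 4 higher and the last to 2 and 2. RLE size factors and DESeq2 gave 2 higher and 2 lower in B6-13D2 against B6 in place of 0 and 3.

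Of 13 tested germline genes known to be silenced by promoter methylation, 12 were called in D2 against B6, 6 higher and 6 lower (7 and 3 with the stem cell marker scaling). With any 1 library left out 9 to 11 were called, and with DESeq2 11. Some of the called genes were near the floor. Mean CPM in B6 and D2 was 0.14 and 0.44 for Asz1, and 0.14 and 0.58 for Rhox13. B6-13D2 had 1 higher and 6 lower than B6, and D2-13B6 had 7 higher and 1 lower than D2 (1 and 7, and 6 and 1, with that scaling). Dazl, a germ cell RNA-binding protein, was higher in D2-13B6 than in D2 by 1.85 (log2, SE 0.0663, edgeR adjusted p 2.91e-13). Ddx4, the germ cell helicase, was lower in D2 than in B6 by -2.07 (SE 0.103, edgeR adjusted p 1.64e-11). Trdmt1, a DNMT homologue that methylates transfer RNA, was called with TMM in D2-13B6 against D2 alone, at -0.31. That call was lost without D2 replicate 1 or D2-13B6 replicate 1. The stem cell marker scaling gave -0.55 there and also called Trdmt1 in D2 against B6 (0.37, edgeR adjusted p 0.00268). Dnmt3c, a close relative of Dnmt3b, did not pass the filter.

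The genes closest in pattern to each of the 10 were sought over the 4 group means of log2 CPM, centred per gene, by the root mean square difference among 11042 candidate genes. The closest to Dnmt3a were P2rx7 (0.038 log2 units) and Plcd3 (0.081), and to Tet2 they were Bbs1 (0.026) and Kdm5b (0.048). Dnmt3l was closest to Fzd9 (0.052) and Ccdc28a (0.063), and Uhrf1 to Maneal (0.020) and Cdk5rap1 (0.039). With 4 group means, close matches are easily found among so many genes. Within the 10, the closest pairs were Dnmt1 and Tdg (0.111), Uhrf2 and Tet1 (0.158), Dnmt1 and Tet1 (0.174) and Dnmt1 and Uhrf1 (0.208).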

How the data were processed

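The authors deposited expected counts per Ensembl gene ID and library, made with EMASE per the file's own name, a method that apportions reads with more than one match. Bowtie 1.0.0, edgeR 3.34.1 and the mm10 build are named in the submitters' processing notes. The annotation release, use of strand and filters are not given in the sources used here. Of the deposited values 88.1% were whole within 1e-06, and 0 columns were left out. Symbols were taken from GENCODE M21.

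Expected counts were rounded to whole numbers for edgeR 4.0.16 (R 4.3.3): a filter by group at a minimum count of 10, TMM scaling, a quasi-likelihood fit over all 12 libraries, and Benjamini-Hochberg adjustment over all 17148 genes tested, called at 0.05. Standard errors are the absolute log2 fold change over the square root of F. The procedure was tested on simulated data, and the outcome is not reported here.

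The members and lists were chosen with earlier results of these data known. Besides the 10 genes, the rule named at most the 2 called genes of each list with the largest change per main comparison (mean log2 CPM 2 or more) and the 2 protein-coding genes nearest in pattern to each of the 10; the stem cell markers named were chosen after their values were seen. Alternatives were DESeq2 1.42.0, RLE size factors, testing without a filter or with a minimum mean CPM of 1, the replicate block, fits to just the compared libraries, and omission of each library. Stem cell marker scaling was added after seeing the data.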

Additional observations from a re-analysis of the deposited data

Results flagged for a closer look

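The effect of the D2 segment was called different between the backgrounds (effect on B6 minus effect on D2, log2, by edgeR's quasi-likelihood test of the difference) for 7 of the 10 genes, where 64.5% of all genes were called. The difference was 0.40 for Dnmt1 (0.25 on the B6 background and -0.16 on the D2 background). It was 0.45 for Dnmt3a (-0.57 and -1.01), 0.72 for Dnmt3b (0.65 and -0.07) and 1.14 for Dnmt3l (0.69 and -0.45). Uhrf1 differed by 0.84 (0.68 and -0.17), Uhrf2 by -0.45 (-0.40 and 0.05) and Tdg by 0.20 (0.04 and -0.15). With the stem cell marker scaling, which moved the median of all genes to -0.40 in this contrast, the differences of Dnmt1 (0.00083) and Dnmt3a (0.04) were no longer called. With that scaling Dnmt3b (0.32), Dnmt3l (0.74), Uhrf1 (0.44) and Uhrf2 (-0.85) kept sign and call, and Tdg turned to -0.21. It also called Tet1 (-0.45), Tet2 (-0.43) and Tet3 (-0.57), which were not called with TMM.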

How the results depend on the processing

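With DESeq2 and with RLE size factors, Tet1 in B6-13D2 against B6 turned to 0.05 (0.0455 in both), and the background differences of Tet1 (0.0240 in both) and Tet2 (0.0403 and 0.0402) turned positive. Tet1 in B6-13D2 against B6 was also positive without a filter (0.0013), with a minimum mean CPM of 1 (0.0206) and with only the libraries compared (0.0184), and the Tet2 difference without a filter (0.0140). None of these was called. The stem cell marker scaling turned D2 against B6 for Dnmt1 (0.15), Uhrf1 (0.0773), Uhrf2 (0.36) and Tet1 (0.37), Tdg in B6-13D2 against B6 (-0.12) and its background difference (-0.21). It also turned D2-13B6 against D2 for Dnmt1 (-0.0835), Dnmt3b (-0.17), Uhrf1 (-0.0737), Tet3 (-0.0745) and Tdg (-0.0858). In that scaling 6 of the 10 genes were called in D2-13B6 against B6 in place of 10, 4 higher and 2 lower. That scaling called 59% of all genes in this pair, 76% of them higher. It called 1 relative (Trdmt1) and 4 formative markers in D2 against B6, and 4 stem cell and 2 two-cell-like markers in B6-13D2 against B6. Of 5 formative markers, 2 were called in D2 against B6, and 1 with DESeq2, without a filter and with only the libraries compared. CXXC genes called in B6-13D2 against B6 went from 3 to 5 without a filter and with a minimum mean CPM of 1, and methyl donor genes in D2-13B6 against D2 from 9 to 5 with that minimum. Leaving out each library gave -0.0414 to 0.0183 for Tet1 in B6-13D2 against B6, -0.0581 to 0.0169 in D2-13B6 against D2 and -0.0755 to 0.00053 for its difference. The range was -0.0580 to 0.0143 for the Tet2 difference and -0.103 to 0.0118 for Uhrf2 in D2-13B6 against D2. Calls ranged from 1 to 2 formative markers in D2 against B6 (1 without B6 replicate 1 or 3 or D2 replicate 2 or 3), from 3 to 5 CXXC genes in B6-13D2 against B6 (5 without B6 replicate 2 or D2 replicate 1), and from 0 to 1 relatives in D2-13B6 against D2 (0 without D2 replicate 1 or D2-13B6 replicate 1). With the replicate number as a block, 10167, 9911 and 9664 genes and 9, 8 and 7 of the 10 were called in the first 3 comparisons, Uhrf2 being lost in D2 against B6; deviations of same-numbered libraries had a mean r of -0.0108 over 18 pairs, so the numbers showed no pairing. The cause of each change was not tested. Each group is 1 line by the protocol, and each library held 22184196 counts or more.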

Other observations

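Markers of the two-cell-like state, a rare condition of embryonic stem cells, separated D2 from the other groups. The 6 markers summed to 157 to 189.8 CPM in D2, 40.7 to 43.0 in B6, 36.1 to 37.0 in B6-13D2 and 27.4 to 31.3 in D2-13B6. All 6 were called higher in D2 than in B6 and lower in D2-13B6 than in D2, where 60.0% and 57.3% of all genes were called; 1 was called in B6-13D2 against B6. Zscan4c, the gene that marks this state, was higher in D2 than in B6 (log2 2.24, SE 0.0943, edgeR adjusted p 1.62e-12) and lower in D2-13B6 than in D2 (log2 -2.61, SE 0.0926). The Zscan4 genes are near-identical copies, so their levels are uncertain.

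Of 5 markers of formative and primed epiblast, 2 were called higher in D2 than in B6, 2 higher and 2 lower in B6-13D2 than in B6, and 3 higher in D2-13B6 than in D2. With the stem cell marker scaling these counts became 4 higher, 1 higher and 2 lower, and 1 higher and 1 lower. Lef1 had means of 24.6 CPM in D2 and 34.4 in D2-13B6, against 8.12 in B6 and 8.04 in B6-13D2, while the other 4 had at most 6.61 in any group and did not share this order. Lef1 was higher in D2 than in B6 by 1.59 (log2, SE 0.0675, edgeR adjusted p 1.79e-12) and in D2-13B6 than in D2 by 0.49, or by 2.08 and 0.25 with that scaling. Of 6 primitive endoderm markers, 4 were called in D2 against B6 (3 higher, 1 lower), 3 in B6-13D2 against B6 (0 higher) and 3 in D2-13B6 against D2 (2 higher, 1 lower). The formative and endoderm counts stand beside 60.0%, 58.3% and 57.3% of all genes called. With the stem cell marker scaling the shares were 77.3%, 60.2% and 63.7%. Dab2 was lower in B6-13D2 than in B6 by -1.46 (log2, SE 0.0698, edgeR adjusted p 5.08e-12). All 8 fibroblast markers were called lower in the same comparison, with a median log2 fold change of -1.56, and their part in the endoderm markers was not tested.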
